A study of Mus musculus with 5 samples.

Results

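The subject is 10 mouse genes that encode the subunits of the transcription factor NF-kappaB and inhibitors that NF-kappaB itself induces. They were chosen by gene name: the subunits Nfkb1, Nfkb2, Rel, Rela and Relb, and the feedback inhibitors Nfkbia, Nfkbiz, Nfkbid, Bcl3 and Tnfaip3. All 10 have a row among the 35275 genes of the deposited table, and all 10 passed the filter on low reads, which kept 13298 genes. RNA was sequenced from sorted T cells of the spleen in 5 libraries, 1 of CD8+ regulatory T cells (CD8 Treg), 2 of CD4+ regulatory T cells (CD4 Treg) and 2 of cells labelled CD49lo. Every group came from wild-type C57BL/6 mice aged 3 months, with no treatment named. By the series' own account the third population is CD8+ and effector-like, although the labels do not tie that description to the name CD49lo. Spleen cells were enriched for CD8 before the fluorescence sort, per the labels' protocol, which is given for every library, CD4 Treg included. Neither the sort markers nor the number of mice per library is given, so the p-values reflect variation among these libraries, and part or all of it may be technical. The single CD8 Treg library has no replicate, and a test of it assumes that it varies like the other groups.

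NF-kappaB is a family of dimers built from p50 (from Nfkb1), p52 (from Nfkb2), c-Rel, RelA and RelB. In resting cells the dimers are held in the cytoplasm by IkappaB proteins, chiefly IkappaB-alpha (Nfkbia). Signals from the T cell receptor, CD28 and TNF family receptors activate the IkappaB kinases, IkappaB-alpha is destroyed, and the freed dimers enter the nucleus, where they switch on, among others, Nfkbia and Tnfaip3 and so limit their own activity. In mice, c-Rel is needed for the normal formation of Foxp3+ regulatory T cells in the thymus, and Nfkbid takes part in Foxp3 induction.

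All 10 genes had their highest levels in CD4 Treg. Between CD4 Treg and CD49lo, 9 of the 10 passed the test as higher in CD4 Treg, led by Nfkbia at 3.22-fold, while 9.45% of all genes tested were called higher. Against CD4 Treg, 7 of the 10 were lower in CD8 Treg, led by Tnfaip3 at 0.278-fold and Nfkbia at 0.289-fold, while 8.35% of all genes were called lower. Between CD8 Treg and CD49lo none of the 10 passed in limma, where 5.30% of all genes did. The fits share libraries between comparisons, so the first and second of these results are not independent of each other.

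Levels are in RPKM, meaning reads per unit of gene length and of library depth, and rest on 5441444 to 8354971 reads in genes per library. In the shallowest library, a gene 1 kilobase long with 1 read has 0.184 RPKM. The 10 genes had between 136 reads (Bcl3 in CD8 Treg) and 2753 reads (Nfkb1 in CD4 Treg replicate 1). The labels were checked against Foxp3 and Cd8a, which tell CD4 Treg from the groups that carry Cd8a. They do not tell CD8 Treg from CD49lo, and the regulatory label of CD8 Treg was not checked. Foxp3, the transcription factor of CD4+ regulatory T cells, was at 0.387 RPKM in CD8 Treg, 146 and 146 RPKM in CD4 Treg, and 1.66 and 0.795 RPKM in CD49lo. Cd8a was at 187 RPKM in CD8 Treg, 0.412 and 0.352 RPKM in CD4 Treg, and 215 and 255 RPKM in CD49lo. The composition of the CD8 Treg library was unlike the rest, with 6.86% of its reads in the noncoding transcript Gm26917, against 3.33% to 4.16% in the other libraries, and 12.6% in ribosomal protein genes, against 8.24% to 9.42%. The female transcript Xist was at 0.0834 RPKM in CD8 Treg, 35.5 and 27.2 RPKM in CD4 Treg, and 0.0269 and 0 RPKM in CD49lo, so the sex of the mice and the CD4 Treg group cannot be told apart.

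**Figure D1:**
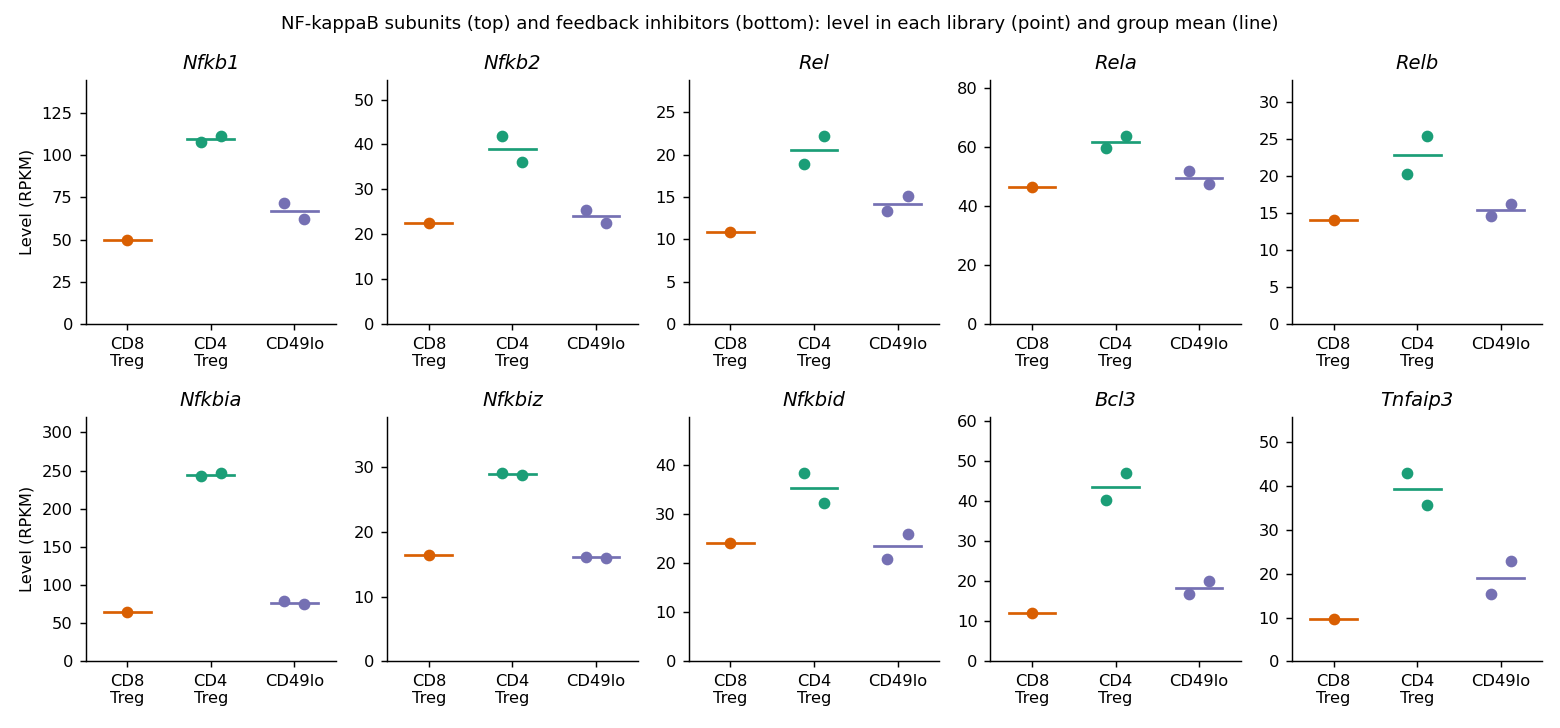
Level in RPKM (vertical axes, each from 0) of the 5 subunits (top) and 5 feedback inhibitors (bottom) in each library (points), with the group mean as a line, for CD8 Treg, CD4 Treg and CD49lo. In all 10 panels both CD4 Treg libraries lie above every other library, from the small gap of Rela to the large gap of Nfkbia.

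The subunits are described first. Nfkb1, which encodes p105 and, after processing, p50, lies on the minus strand of mm10 chromosome 3 (135584655 to 135691547). It was at 49.9 RPKM in CD8 Treg, 108 and 111 RPKM in CD4 Treg, and 71.6 and 61.9 RPKM in CD49lo. The 3 groups did not overlap, but the single CD8 Treg library lay below both CD49lo libraries for 51.2% of all genes. Between CD8 Treg and CD49lo, Nfkb1 was not called (adjusted p = 0.313 in limma). Nfkb1 was the most abundant of the 5 subunits in every library and the second most abundant of the 10 genes. Its log2 fold change of CD4 Treg over CD49lo was 0.74 ± 0.11 (± SE here and after every fold change), or 1.67-fold, with an adjusted p of 0.00132 in limma. Fold changes are on the log2(RPKM + 0.5) scale after scaling between libraries, and a gene is called at a Benjamini-Hochberg adjusted p under 0.05 over all genes tested. By that rule 22.3% of all genes were called between CD4 Treg and CD49lo, 9.45% as higher and 12.8% as lower.

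Nfkb2 (chromosome 19, plus strand, 46304737 to 46312090) encodes p100, the precursor of p52 and an inhibitor in the non-canonical pathway. Its level was 22.5 RPKM in CD8 Treg, 41.8 and 36.0 RPKM in CD4 Treg, and 25.4 and 22.6 RPKM in CD49lo. The CD8 Treg value lay next to the lower CD49lo library. Nfkb2 rose by 0.71 ± 0.14 in CD4 Treg over CD49lo (1.64-fold, adjusted p = 0.00585 in limma).

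Rel (chromosome 11, minus strand, 23741514 to 23770970) encodes c-Rel, the subunit most restricted to lymphoid and myeloid cells. It was the least abundant subunit, at 10.9 RPKM in CD8 Treg, 18.9 and 22.2 RPKM in CD4 Treg, and 13.3 and 15.1 RPKM in CD49lo. CD4 Treg lay above CD49lo, and the single CD8 Treg library below it, as it did for 51.2% of all genes. Rel had a log2 fold change of 0.54 ± 0.17 in CD4 Treg over CD49lo (1.46-fold, adjusted p = 0.0431 in limma). This call was close to the threshold and held in 8 of 15 alternatives. It was lost without a scaling factor (adjusted p = 0.0554), with a prior without a trend (0.127), with no filter (0.139) and with any of the 4 libraries left out (up to 0.274).

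Rela (chromosome 19, plus strand, 5637483 to 5648130) encodes RelA, or p65, the main activating partner of p50. Rela was at 46.6 RPKM in CD8 Treg, 59.7 and 63.7 RPKM in CD4 Treg, and 51.8 and 47.6 RPKM in CD49lo. It had the smallest differences of the 10 genes from CD4 Treg in both other groups and was the 1 member without a call between CD4 Treg and CD49lo, with a log2 fold change of 0.34 ± 0.12 (adjusted p = 0.0719 in limma). The 95% interval of that difference runs from 1.05-fold to 1.52-fold. A filter that kept only genes with 50 reads moved the adjusted p to 0.0442.

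Relb (chromosome 7, minus strand, 19606217 to 19629438) encodes RelB, the partner of p52 in the non-canonical pathway. Its 5 values were 14.0 RPKM in CD8 Treg, 20.3 and 25.4 RPKM in CD4 Treg, and 14.6 and 16.2 RPKM in CD49lo. Relb was higher in CD4 Treg than in CD49lo by a log2 fold change of 0.57 ± 0.16 (1.49-fold, adjusted p = 0.0299 in limma). The 2 CD4 Treg libraries were further apart for Relb than the CD8 Treg library was from either CD49lo library.

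The feedback inhibitors included the largest differences. Nfkbia (chromosome 12, minus strand, 55489411 to 55492647) encodes IkappaB-alpha, the inhibitor that is destroyed on activation and made anew by NF-kappaB. It was at 65.3 RPKM in CD8 Treg, 242 and 246 RPKM in CD4 Treg, and 78.9 and 75.1 RPKM in CD49lo. It was the most abundant of the 10 genes in every library, and the replicates of each group lay close together. Nfkbia rose 3.22-fold in CD4 Treg over CD49lo (log2 fold change 1.69 ± 0.11, adjusted p = 8.85e-06 in limma), more than 97.5% of all genes tested.

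Bcl3 (chromosome 7, minus strand, 19808462 to 19822770) encodes a nuclear IkappaB protein that binds p50 and p52 dimers on DNA. The level of Bcl3 was 12.1 RPKM in CD8 Treg, 40.3 and 47.0 RPKM in CD4 Treg, and 16.8 and 20.1 RPKM in CD49lo. The log2 fold change of CD4 Treg over CD49lo was 1.25 ± 0.17 (2.37-fold, adjusted p = 0.000689 in limma). Bcl3 overlaps the antisense genes Gm16174 and Gm16175, which were at no more than 3.41 RPKM in any library. Whether the reads were counted by strand is not given in the sources used here. Of the 10 genes, 8 overlap no other gene of the table, and Nfkb2 overlaps only 4 bases of its neighbour Psd.

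Tnfaip3 (chromosome 10, minus strand, 19000910 to 19015657) encodes A20, an enzyme that edits ubiquitin chains and so stops signals on their way to the IkappaB kinases. It was at 9.75 RPKM in CD8 Treg, 42.8 and 35.6 RPKM in CD4 Treg, and 15.3 and 22.9 RPKM in CD49lo. The 3 groups did not overlap, and the CD49lo libraries were wide apart. The single CD8 Treg library lay below both CD49lo libraries for 51.2% of all genes. Tnfaip3 was 2.10-fold higher in CD4 Treg than in CD49lo (log2 fold change 1.07 ± 0.18, adjusted p = 0.00229 in limma).

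Nfkbiz (chromosome 16, minus strand, 55811375 to 55838899) encodes IkappaB-zeta, a nuclear protein that helps p50 dimers activate a second wave of genes. Nfkbiz was at 16.4 RPKM in CD8 Treg, 29.0 and 28.8 RPKM in CD4 Treg, and 16.2 and 15.9 RPKM in CD49lo, with replicates close together in both groups. It rose 1.81-fold in CD4 Treg over CD49lo (0.85 ± 0.13 on the log2 scale, adjusted p = 0.00113 in limma). Nfkbid (chromosome 7, plus strand, 30421732 to 30428746) encodes IkappaB-NS, another nuclear IkappaB protein. Its level was 24.1 RPKM in CD8 Treg, 38.2 and 32.3 RPKM in CD4 Treg, and 20.9 and 25.9 RPKM in CD49lo. The log2 fold change was 0.61 ± 0.17 in CD4 Treg over CD49lo (1.53-fold, adjusted p = 0.0263 in limma).

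Over all 10 genes the median log2 fold change of CD4 Treg over CD49lo was 0.72, while the median over all genes tested was -0.03. All 10 had both CD4 Treg libraries above both CD49lo libraries in deposited RPKM, as did 26.5% of all genes tested. Nfkbia was called in all 15 alternative fits of this comparison, and no member changed sign in any of them. The other 8 calls were all lost when either CD49lo library was left out. With CD4 Treg replicate 1 left out 4 members were called (Nfkb1, Nfkbia, Nfkbiz and Bcl3), and with replicate 2 of that group left out 6 were, the same 4 with Nfkb2 and Tnfaip3. Those fits keep 1 residual degree of freedom, and the full fit has 2.

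**Figure D2:**
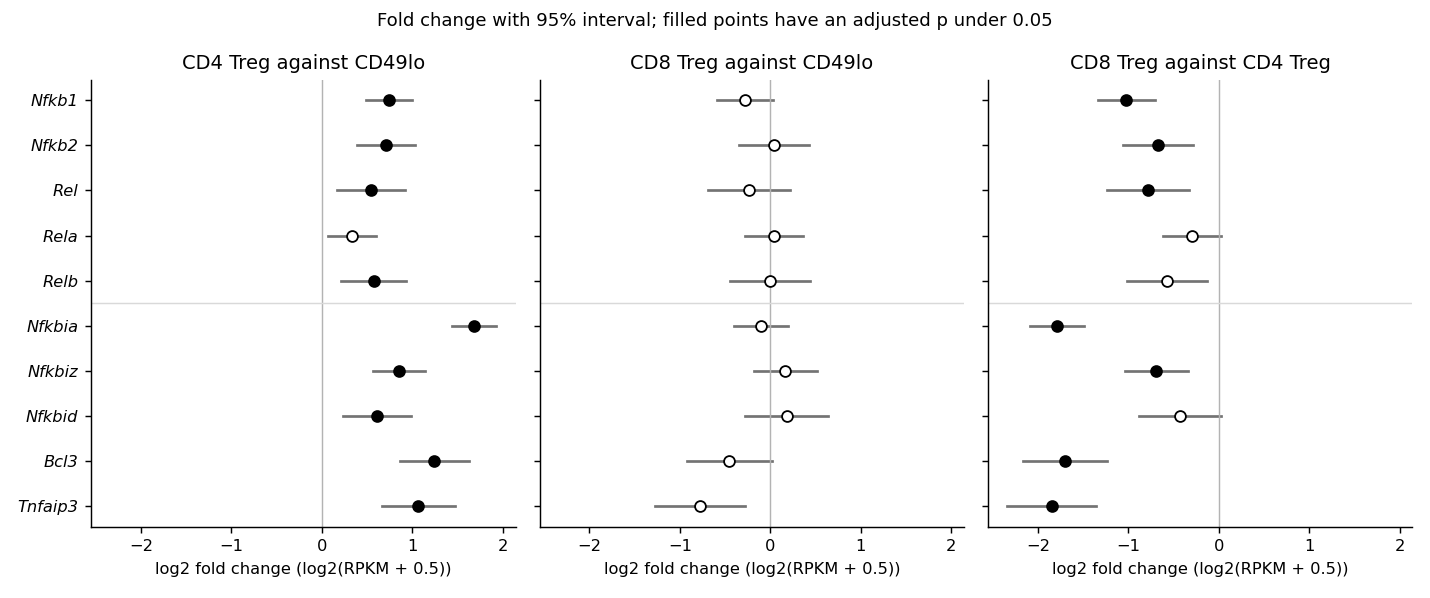
Log2 fold change on the log2(RPKM + 0.5) scale (horizontal axis) of the 10 genes, 1 panel per pair of groups (CD4 Treg over CD49lo, then CD8 Treg over CD49lo, then CD8 Treg over CD4 Treg), with 95% intervals as bars and filled points for an adjusted p under 0.05. In the first panel 9 of 10 points are filled on the right, in the second none is filled, and in the third 7 are filled on the left.

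CD8 Treg and CD4 Treg were compared next, as the labelled regulatory populations of the 2 lineages. Of the 10 genes, 7 were lower in CD8 Treg and none was higher, against 8.35% of all genes called lower and 8.51% called higher (16.9% in either direction). Tnfaip3 had a log2 fold change of -1.84 ± 0.22 (0.278-fold, adjusted p = 0.000492 in limma). Nfkbia followed at -1.79 ± 0.13 (0.289-fold, adjusted p = 3.74e-05) and Bcl3 at -1.70 ± 0.21 (0.308-fold, adjusted p = 0.000582). These inhibitors stood apart in size from the called subunits. Nfkb1 fell to 0.493-fold (-1.02 ± 0.14, adjusted p = 0.00106), Rel to 0.582-fold (-0.78 ± 0.20, adjusted p = 0.0287) and Nfkb2 to 0.628-fold (-0.67 ± 0.17, adjusted p = 0.0276). Nfkbiz fell to 0.620-fold (-0.69 ± 0.15, adjusted p = 0.0148).

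Relb, Nfkbid and Rela did not pass in this comparison. Relb was at 0.672-fold (95% interval 0.495 to 0.913, adjusted p = 0.0805 in limma), Nfkbid at 0.743-fold (0.541 to 1.02, adjusted p = 0.195) and Rela at 0.815-fold (0.651 to 1.02, adjusted p = 0.211). The median over the 10 genes was -0.73 on the log2 scale, beside 0.02 over all genes. The CD8 Treg value lay below both CD4 Treg values for 10 of the 10 genes, as it did for 45.7% of all genes in deposited RPKM. Nfkbia was called in all 14 alternatives of this comparison. Without CD4 Treg replicate 1 or 2 there were 4 calls, and without CD49lo replicate 1 or 2 there was 1, Nfkbia.

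Between CD8 Treg and CD49lo, the populations that both carry Cd8a, none of the 10 genes passed the limma test, by which 5.30% of all genes were called (1.71% higher and 3.59% lower). Limma-voom on the recovered reads also called 0. At an unadjusted p under 0.05 there was 1, Tnfaip3, against 19.2% of all genes tested. The level of Tnfaip3 in CD8 Treg, 9.75 RPKM, lay below both CD49lo values, with a log2 fold change of -0.78 ± 0.22 (0.583-fold, 95% interval 0.414 to 0.821, adjusted p = 0.0806). It passed without a scaling factor (adjusted p = 0.0464), with the filter at 50 reads (adjusted p = 0.0137) and with only these 2 groups in the fit (adjusted p = 0.0246), and over all alternatives its adjusted p ranged up to 0.374.

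The intervals of the other 9 genes show how large a difference these libraries leave possible. For Nfkbia the fold change of CD8 Treg over CD49lo was 0.932, with a 95% interval of 0.758 to 1.15. For Rela it was 1.03 (0.822 to 1.29) and for Nfkb2 1.03 (0.785 to 1.35). Bcl3, at 0.730-fold (0.528 to 1.01), and Nfkb1, at 0.824-fold (0.664 to 1.02), had intervals mostly below 1. Rel stood at 0.849-fold (0.618 to 1.17), Relb at 0.9996-fold (0.736 to 1.36), Nfkbiz at 1.12-fold (0.881 to 1.43) and Nfkbid at 1.13-fold (0.826 to 1.56).

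Scaling matters here, because the CD8 Treg library has the lowest scaling factor (0.935, against 1.005 to 1.04 in the others). In deposited RPKM the CD8 Treg value was below both CD49lo values for 8 of the 10 genes and above both for 1, Nfkbiz, with 51.2% of all genes below and 24.5% above. In scaled RPKM it was below both for 5 and above both for 2, with 40.9% of all genes below and 34.1% above. Without a scaling factor the median log2 fold change of all genes in this comparison was -0.16, against -0.04 with it, and the share of calls that were higher in CD8 Treg was 20.6%, against 32.3%. The signs of Nfkb2, Rela and Relb, all near 0, turned in some alternatives.

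The balance within the family also differed between the groups, which can be read without any scaling, since both sides of a ratio come from 1 library and RPKM is per length. The 5 subunits summed to 144 RPKM in CD8 Treg, 249 and 259 RPKM in CD4 Treg, and 177 and 163 RPKM in CD49lo. The 5 inhibitors summed to 128 RPKM in CD8 Treg, 393 and 390 RPKM in CD4 Treg, and 148 and 160 RPKM in CD49lo. The ratio of inhibitors to subunits was therefore 0.887 in CD8 Treg, 1.58 and 1.51 in CD4 Treg, and 0.838 and 0.978 in CD49lo. Nfkbia alone gave 47.0% to 63.1% of the inhibitor sum, so the ratio weighs that gene most. The sums follow the lists as named, although Nfkbiz can help activation and the p100 of Nfkb2 can inhibit. The CD8 Treg ratio lay between the 2 CD49lo ratios, and both CD4 Treg ratios lay above them. With 2 libraries against 2, an exact two-sided permutation test cannot go below 0.333, which was the value for CD4 Treg against CD49lo.

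Within the subunits, Nfkb1 gave 34.7% of the summed RPKM in CD8 Treg, 43.4% and 43.0% in CD4 Treg, and 40.5% and 37.9% in CD49lo. Rela gave 32.4% in CD8 Treg, 24.0% and 24.7% in CD4 Treg, and 29.3% and 29.1% in CD49lo. Nfkb1 and Rela were thus closest in the CD8 Treg library and furthest apart in CD4 Treg. Among the inhibitors, Nfkbia gave 51.1% of the summed RPKM in CD8 Treg, 61.7% and 63.1% in CD4 Treg, and 53.3% and 47.0% in CD49lo. The share of Tnfaip3 was 7.64% in CD8 Treg, below the 10.9% and 9.13% of CD4 Treg and the 10.3% and 14.3% of CD49lo. The ratio of Nfkbia to Rela was 1.40 in CD8 Treg, 4.06 and 3.86 in CD4 Treg, and 1.52 and 1.58 in CD49lo.

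**Figure D3:**
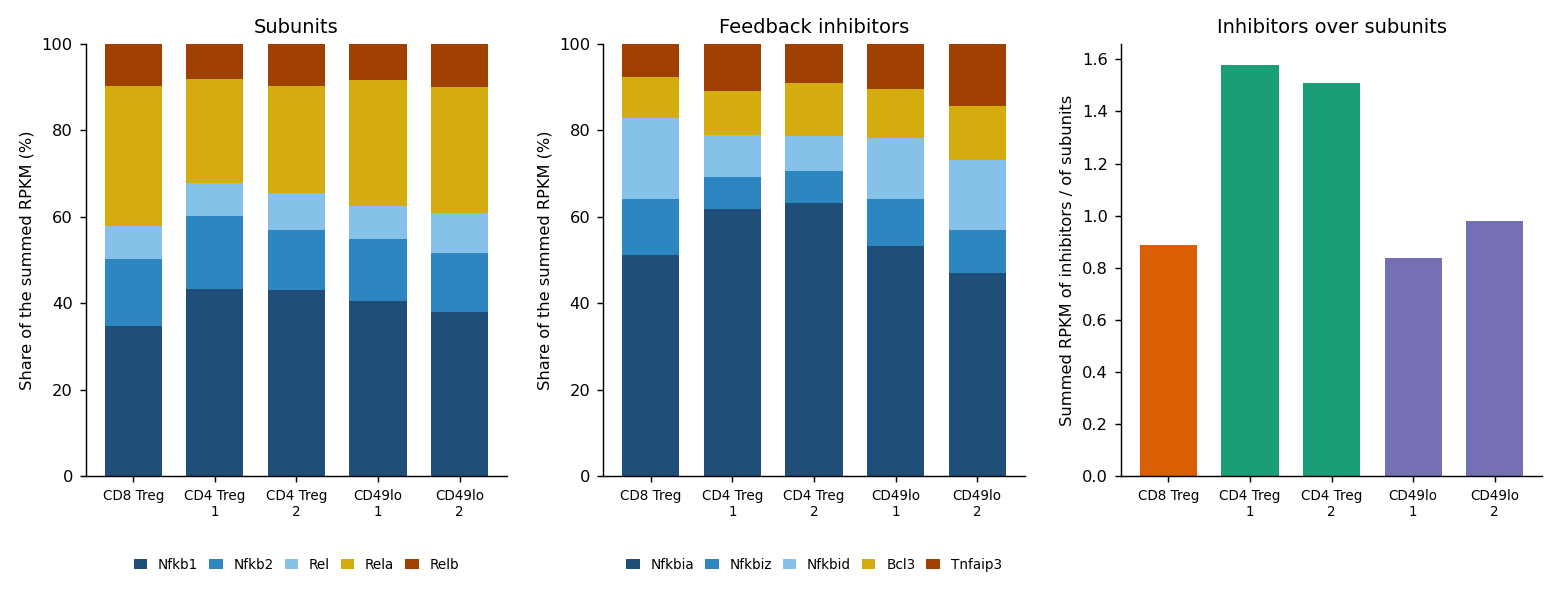
Share of each gene in the summed RPKM of the 5 subunits (left, in percent) and of the 5 feedback inhibitors (middle, in percent), and the ratio of the inhibitor sum to the subunit sum (right), in each of the 5 libraries. The ratio is 0.887 in CD8 Treg, 1.58 and 1.51 in CD4 Treg, and 0.838 and 0.978 in CD49lo.

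The 10 genes fell into patterns of different size across the 5 libraries. Each gene's scaled log2 values were centred on their own mean, and the Euclidean distance between genes was taken over the 5 libraries. Rel and Relb were each other's nearest member (distance 0.21), as were Nfkb2 and Nfkbiz (0.23) and Bcl3 and Tnfaip3 (0.49). Nfkbia was nearest to Bcl3 (0.53) and furthest from Rela (1.54), the largest distance among the 10. These distances describe 5 libraries that share their 3 groups, and carry no test.

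The promoters of the 10 genes were searched for the kappaB consensus, the sequence that NF-kappaB dimers bind, because Nfkbia, Tnfaip3, Nfkb2 and Rel are textbook targets of the factor. RefSeq promoter windows (GRCm38.p6, the assembly also named mm10) were at hand for 7 of the 10 genes, all but Nfkb1, Relb and Nfkbiz. The 250 bases before each annotated start were searched on both strands. The consensus was GGG, then A or G, any base, A or T, C or T, C or T, and CC. Of these 7 genes, 5 had a match in at least 1 window (Nfkb2, Rel, Nfkbia, Nfkbid and Tnfaip3), while 4.46% of the 27025 genes with windows had 1. Several of the 7 have more windows than the median of 1 per gene, and per window the count was 7 of 12, against 3.90% of all 32851 windows. The median GC content of all windows was 52.4%, and most of the 12 lay above it, within a range of 46.4% to 77.6%. The part of GC content in these shares was not tested. Part of the set was chosen as genes that NF-kappaB induces, so a share above that of all genes was built into the choice. A looser pattern that keeps only the leading GGG and the trailing CC of the consensus was in 7 of 7 genes and in 48.7% of all genes. Some of the 12 windows lie inside the gene as deposited.

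The promoters of 3 genes are shown, the 250 bases before the start on the gene's strand with kappaB consensus matches in capitals: Nfkbia as the gene with the largest difference between CD4 Treg and CD49lo, Rel as a subunit with a smaller one, and Bcl3 as a gene with a large difference and no match.
Nfkbia (chr12:55492648-55492897, minus strand): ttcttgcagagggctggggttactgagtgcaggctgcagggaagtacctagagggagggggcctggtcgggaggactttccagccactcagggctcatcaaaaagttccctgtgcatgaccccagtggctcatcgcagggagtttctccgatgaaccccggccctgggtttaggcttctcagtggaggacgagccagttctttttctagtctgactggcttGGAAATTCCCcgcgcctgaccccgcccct
Rel (chr11:23770970-23771219, minus strand): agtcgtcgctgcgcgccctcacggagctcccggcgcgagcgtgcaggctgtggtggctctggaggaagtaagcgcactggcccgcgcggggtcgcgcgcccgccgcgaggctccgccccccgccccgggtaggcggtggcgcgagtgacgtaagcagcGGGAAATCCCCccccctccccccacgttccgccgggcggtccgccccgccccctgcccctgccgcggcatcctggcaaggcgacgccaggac
Bcl3 (chr7:19822756-19823005, minus strand): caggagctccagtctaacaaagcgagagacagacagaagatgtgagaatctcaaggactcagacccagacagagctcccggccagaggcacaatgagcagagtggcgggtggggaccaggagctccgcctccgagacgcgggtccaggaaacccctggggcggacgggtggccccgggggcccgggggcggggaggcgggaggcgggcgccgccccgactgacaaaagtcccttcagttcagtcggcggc
Matches are written as they read on the gene's strand. The match in Nfkbia begins 29 bases before the start and reads GGAAATTCCC. It fits the consensus on the opposite strand, as does GGAAATCCCC of Tnfaip3 below. In Rel 2 matches overlap by all but 1 base and begin 92 bases before the start (GGGAAATCCC). Nfkb2 has GGGAATTCCC at 39 bases and GGGGCTTTCC at 11 bases before its first start, and Tnfaip3 has GGGACACCCC at 125 and GGAAATCCCC at 12 bases before the start that RefSeq gives, which lies inside the gene as deposited. The matches of Nfkbid lie in a window wholly inside the gene as deposited. Rela and Bcl3 had no match in these windows. A match is a string of letters and was not measured as a binding site, and Bcl3 and Rela, without matches, had a large and a small difference.

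The rest of the pathway was described from lists of named genes. Other inhibitors of NF-kappaB, 19 genes that include further IkappaB proteins and partners of A20, had 4 genes higher and 2 lower in CD4 Treg than in CD49lo, where 9.45% of all genes were called higher and 12.8% lower. Their median log2 fold change was 0.22. Tnip1, which brings A20 to its targets, was at 61.2 RPKM in CD8 Treg, 138 and 139 RPKM in CD4 Treg, and 71.1 and 57.7 RPKM in CD49lo. Its log2 fold change of CD4 Treg over CD49lo was 1.13 ± 0.13 (adjusted p = 0.00022 in limma). Tank, an adaptor that binds TRAF proteins, rose by 1.08 ± 0.13 (adjusted p = 0.000371), and Peli1, a ubiquitin ligase, by 0.91 ± 0.11 (adjusted p = 0.000404). On the other side were Otulin, which removes linear ubiquitin chains (-0.67 ± 0.13, adjusted p = 0.00439), and Nkiras2, which slows the loss of IkappaB proteins (-1.19 ± 0.23, adjusted p = 0.0054).

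Tank also differed between the other pairs of groups. It was at 14.6 RPKM in CD8 Treg, 60.2 and 69.6 RPKM in CD4 Treg, and 31.8 and 30.2 RPKM in CD49lo. The groups did not overlap, although CD8 Treg lay below both CD49lo libraries for 51.2% of all genes. The log2 fold change was -2.002 ± 0.16 in CD8 Treg over CD4 Treg (adjusted p = 5.71e-05 in limma) and -0.92 ± 0.16 in CD8 Treg over CD49lo (adjusted p = 0.0117). Of the 19 other inhibitors, 4 were lower and none higher in CD8 Treg than in CD4 Treg (8.35% of all genes were lower), and 2 were lower and none higher in CD8 Treg than in CD49lo (3.59% of all genes were lower). The second of these 2, beside Tank, was Otud7b, a deubiquitinase that acts in the non-canonical pathway, at 3.74 RPKM in CD8 Treg, 7.14 and 7.89 RPKM in CD4 Treg, and 7.62 and 7.13 RPKM in CD49lo. Its log2 fold change was -0.77 ± 0.18 in CD8 Treg over CD49lo (adjusted p = 0.0452 in limma) and -0.82 ± 0.18 in CD8 Treg over CD4 Treg (adjusted p = 0.0148). Tnip1 was also lower in CD8 Treg than in CD4 Treg (-1.06 ± 0.15, adjusted p = 0.00159).

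The adaptors and kinases that carry the signal to the IkappaB kinases moved little. Of 26 such genes, 5 were higher and 1 lower in CD4 Treg than in CD49lo, beside 9.45% and 12.8% of all genes. The share called in either direction was near the 22.3% of all genes. The median of the 26 was 0.02, beside -0.03 over all genes. The clearest were Birc2 (0.75 ± 0.12, adjusted p = 0.00185 in limma) and Birc3 (0.69 ± 0.12, adjusted p = 0.00298), the ubiquitin ligases cIAP1 and cIAP2, and Traf6 (0.64 ± 0.15, adjusted p = 0.0118). Chuk, the kinase IKK-alpha, was lower (-0.53 ± 0.14, adjusted p = 0.0246 in limma). The calls of Traf6 and Chuk each held in 9 of 15 alternatives. In CD8 Treg against CD4 Treg, Malt1, the protease of the complex that links the T cell receptor to NF-kappaB, was higher (0.78 ± 0.21, adjusted p = 0.0305), while Birc2 (-0.90 ± 0.15), Birc3 (-0.84 ± 0.15) and Rnf31 (-0.59 ± 0.16), a subunit of the linear ubiquitin ligase, were lower, with adjusted p at most 0.0375. None of the 26 was called between CD8 Treg and CD49lo by limma, where 5.30% of all genes were. At an unadjusted p under 0.05 there were 3, against 19.2% of all genes tested.

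Receptors upstream of NF-kappaB showed larger differences in both directions. Of 17 genes, 9 were higher and 3 lower in CD4 Treg than in CD49lo, beside 9.45% and 12.8% of all genes. Tnfrsf4, which encodes OX40, was at 7.86 RPKM in CD8 Treg, 236 and 266 RPKM in CD4 Treg, and 6.48 and 6.01 RPKM in CD49lo. Tnfrsf18, which encodes GITR, was at 34.6 RPKM in CD8 Treg, 179 and 199 RPKM in CD4 Treg, and 28.9 and 34.0 RPKM in CD49lo. Both were high in CD4 Treg alone and near each other in CD8 Treg and CD49lo. Tnfrsf9, which encodes 4-1BB, was at 4.20 RPKM in CD8 Treg, 61.1 and 75.7 RPKM in CD4 Treg, and 13.0 and 11.2 RPKM in CD49lo. Its 3 groups did not overlap, although CD8 Treg lay below both CD49lo libraries for 51.2% of all genes.

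The chains of the IL-18 receptor ran the other way. Il18r1 was at 59.9 RPKM in CD8 Treg, 16.5 and 16.2 RPKM in CD4 Treg, and 32.6 and 25.0 RPKM in CD49lo, and was the 1 receptor gene higher in CD8 Treg than in CD49lo (1.19 ± 0.19, adjusted p = 0.00708 in limma). Il18rap was at 39.4 RPKM in CD8 Treg, 2.18 and 2.26 RPKM in CD4 Treg, and 34.5 and 67.5 RPKM in CD49lo. Lower in CD8 Treg than in CD49lo were 2 receptor genes, Tnfrsf9 (-1.29 ± 0.22, adjusted p = 0.0104) and Ltbr, the lymphotoxin-beta receptor (adjusted p = 0.042). Ltbr was at 0.313 RPKM in CD8 Treg, 0.0765 and 0 RPKM in CD4 Treg, and 3.64 and 3.83 RPKM in CD49lo, which is 4 reads in CD8 Treg and 1 and 0 in CD4 Treg, and it was also called lower in CD4 Treg than in CD49lo (adjusted p = 0.0012). Between CD8 Treg and CD49lo, 1.71% of all genes were called higher and 3.59% lower. Whether the Ltbr reads came from the sorted T cells or from other cells was not tested. Against CD4 Treg, 2 receptor genes, the IL-18 receptor chains, were higher in CD8 Treg and 8 were lower, beside 8.51% and 8.35% of all genes.

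Textbook targets outside the 10 genes differed in both directions. Birc3, Traf1 and Nfkbie stand in this list and in 1 of those above. Il2ra was also listed as a marker of CD4+ regulatory T cells, so its difference partly restates the cell label. Of 26 tested, 9 were higher and 7 lower in CD4 Treg than in CD49lo, with a median log2 fold change of 0.25, where 22.3% of all genes were called. Il2ra (5.77 ± 0.22), which encodes CD25, Ltb (1.10 ± 0.10), a TNF family ligand, and Cd83 (1.62 ± 0.16) were higher, each with an adjusted p of at most 0.000114 in limma. The chemokines Ccl5 (-7.15 ± 0.27, adjusted p = 5.29e-07) and Ccl4 (-4.51 ± 0.47, adjusted p = 0.000157) were lower, and Ccl3 had 0 reads in both CD4 Treg libraries. Between CD8 Treg and CD4 Treg, 6 were higher and 10 lower in CD8 Treg, where 16.9% of all genes were called. Vcam1, an adhesion molecule, was among the higher ones (3.87 ± 0.51, adjusted p = 0.000893), at 27.5 RPKM in CD8 Treg, 3.04 and 0.703 RPKM in CD4 Treg, and 19.1 and 23.4 RPKM in CD49lo, with the CD4 Treg libraries far apart. Lta, which encodes lymphotoxin-alpha, was among the lower ones (-3.22 ± 0.42, adjusted p = 0.000891), at 1.19 RPKM in CD8 Treg, 17.7 and 14.6 RPKM in CD4 Treg, and 4.67 and 2.97 RPKM in CD49lo. Between CD8 Treg and CD49lo, where 5.30% of all genes were called, 1 target was higher and 3 were lower. Myc was higher (1.23 ± 0.17, adjusted p = 0.00399) and Irf4 (-0.89 ± 0.19, adjusted p = 0.027), Bcl2a1d (-1.96 ± 0.44, adjusted p = 0.0343) and Cd83 (-0.81 ± 0.20, adjusted p = 0.0498) were lower. Bcl2a1d belongs to a family of near-identical genes, and reads could be split among them. The 11 list genes named as called between CD8 Treg and CD49lo, from Tank to Nr4a1, held their call in 3 (Cd83) to 10 (Myc) of 14 alternatives. None of the 11 was called with no filter, with a prior without a trend or with either CD49lo library left out, and 1, Myc, was called with either CD4 Treg library left out.

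**Figure D4:**
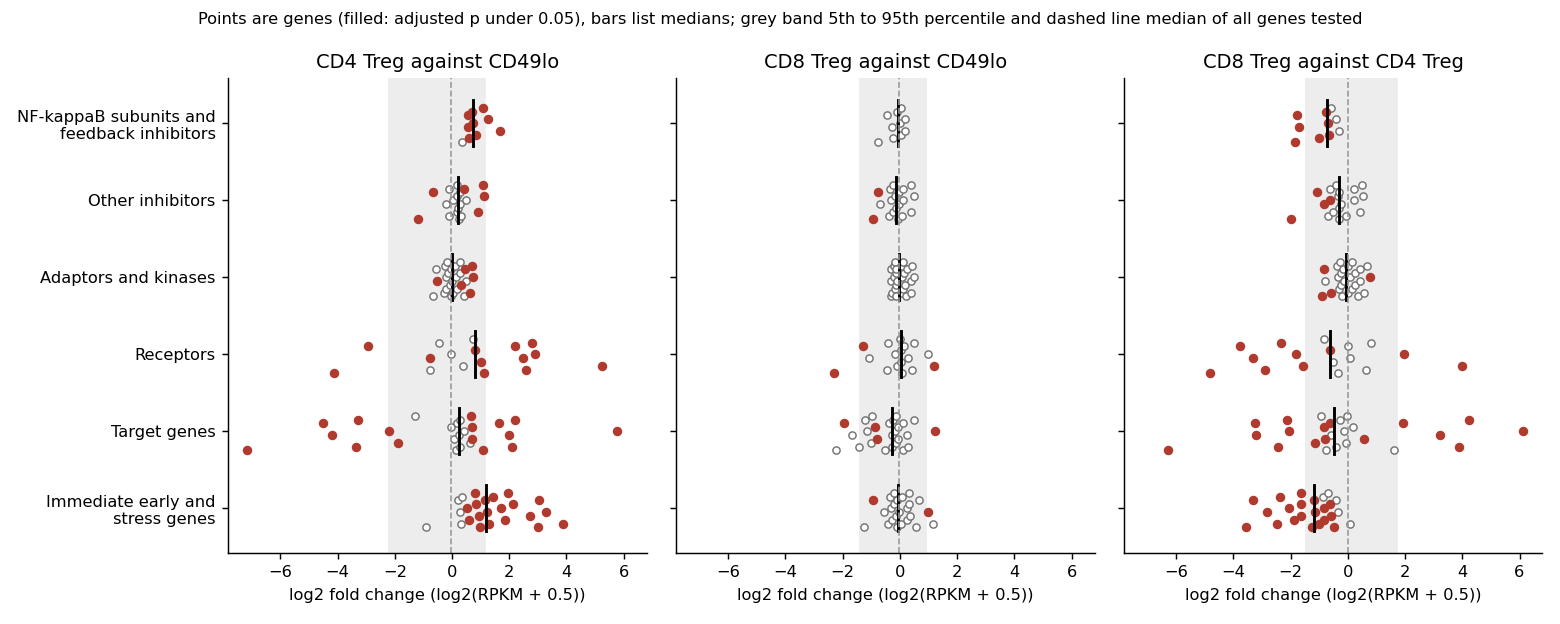
Log2 fold change on the log2(RPKM + 0.5) scale (horizontal axis) of each gene (points, filled for an adjusted p under 0.05) in 6 lists, for the 3 comparisons, with list medians as bars and the 5th to 95th percentile of all genes tested as a grey band. The median of the 10 NF-kappaB genes is 0.72 for CD4 Treg over CD49lo, -0.05 for CD8 Treg over CD49lo and -0.73 for CD8 Treg over CD4 Treg, while adaptors and kinases centre near 0 in all 3.

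Immediate early and stress genes, which respond to activation and also to handling of cells, moved with the 10 genes. Of 24, 19 were higher and none lower in CD4 Treg than in CD49lo (median log2 fold change 1.20), beside 9.45% of all genes higher. In CD8 Treg 19 were lower and none higher than in CD4 Treg (median -1.18), beside 8.35% of all genes lower. Their summed level was 1660 RPKM in CD8 Treg, 3357 and 3317 RPKM in CD4 Treg, and 1731 and 1719 RPKM in CD49lo. Dusp1 (3.27 ± 0.18), Jun (3.06 ± 0.18) and Junb (1.73 ± 0.10) were the clearest in CD4 Treg over CD49lo, with adjusted p at most 6.19e-06 in limma. Between CD8 Treg and CD49lo, where none of the 10 NF-kappaB genes passed, Socs3 was higher (0.97 ± 0.16, adjusted p = 0.0093) and Nr4a1 lower (-0.95 ± 0.19, adjusted p = 0.0199). The part of cell handling in the NF-kappaB result was not tested.

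Most markers of other cell types ran against the 10 genes. All 10 B cell markers were lower in CD4 Treg than in CD49lo, beside 12.8% of all genes, a share that also stands beside the lists below. The B cell markers summed to 93.4 RPKM in CD8 Treg, 10.3 and 13.2 RPKM in CD4 Treg, and 158 and 218 RPKM in CD49lo. All 10 monocyte, macrophage and neutrophil markers were also lower, with sums of 271 RPKM in CD8 Treg, 34.6 and 20.1 RPKM in CD4 Treg, and 566 and 516 RPKM in CD49lo. Dendritic cell markers (5 of 7 lower) summed to 9.002 RPKM in CD8 Treg, 0.865 and 0.778 RPKM in CD4 Treg, and 48.4 and 47.8 RPKM in CD49lo. NK cell markers (5 of 6 lower) summed to 119 RPKM in CD8 Treg, 1.69 and 2.87 RPKM in CD4 Treg, and 109 and 226 RPKM in CD49lo. Whether these came from NK cells or from the sorted CD8+ cells themselves was not tested. Red cell and platelet markers (1 of 5 tested lower) summed to 13.8 RPKM in CD8 Treg, 13.0 and 1.83 RPKM in CD4 Treg, and 23.2 and 46.6 RPKM in CD49lo. Of the myeloid markers 1 and 5 were at 0 reads in the CD4 Treg libraries, of the dendritic ones 3 and 4, and of the NK ones 1 and 3. The NF-kappaB genes were thus highest in the libraries with the least of these transcripts, and the part of other cell types in the result was not tested. In such bulk samples fewer cells of a type and less RNA per cell cannot be told apart.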

How the data were processed

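RNA-seq of sorted mouse spleen T cells gave 1 CD8 Treg, 2 CD4 Treg and 2 CD49lo libraries, grouped by their titles. The deposited table is in RPKM, although it is presented as counts; CASAVA, STAR and mm10 appear, without versions, in the submitters' processing notes, and the counting tool and strand setting are not given in the sources used here. Each value times the gene length was a whole multiple of 1 step per library (100% within 0.02 of a whole number), which gave back the reads. The 5 sample columns were all used. The main fit used the deposited RPKM, and limma-voom on the recovered reads was an alternative.

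With limma 3.58.1 in R 4.3.3 a linear model over all 5 libraries (2 residual degrees of freedom) was fitted on log2(RPKM + 0.5), scaled by trimmed mean of M values factors from the recovered reads, with a prior variance that follows mean log2 RPM. Genes needed 10 reads, rescaled to the median library size, in 1 or more libraries and 15 reads in total. The script was tested on simulated data. The members, gene lists and fit were chosen with earlier results of these data known. List genes are named if called and among the 3 smallest p in a direction of a comparison. For 7 of the 10 members the deposited start and end equal those of GENCODE M21. Numbers pair no libraries by the labels; 15 alternatives were run, 14 of them planned.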

Additional observations from a re-analysis of the deposited data

How the results depend on the processing

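Direction held for all members in CD4 Treg against CD49lo (15 alternatives) and CD8 Treg against CD4 Treg (14). Calls were fewer with no filter and with a prior without a trend. Of the 24 list genes named as called in CD4 Treg against CD49lo, 12 kept the call with no filter and 18 with that prior. Of the 21 in CD8 Treg against CD4 Treg, 15 kept it in either setting. With no filter, members called were 2 in CD4 Treg against CD49lo and 3 in CD8 Treg against CD4 Treg, and genes called 704 and 1277. With the prior without a trend, 3 members were called in each of these comparisons, and genes called were 1961 and 1192, with 2 in CD8 Treg against CD49lo. With only the 2 groups compared, 1077 genes were called in CD8 Treg against CD4 Treg, and 1 member in CD8 Treg against CD49lo, as with the stricter filter and without a scaling factor (1 each). Leaving out 1 library at a time, members called ranged from 1 to 6 in CD4 Treg against CD49lo and from 1 to 4 in CD8 Treg against CD4 Treg, and genes called from 437 to 1457, from 0 to 199 in CD8 Treg against CD49lo, and from 155 to 967 in CD8 Treg against CD4 Treg. Such fits have fewer samples and 1 residual degree of freedom; the cause of the other changes was not tested.

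In CD8 Treg against CD49lo the sign turned, without a call, for Nfkb2 and Rela with no scaling factor (log2 fold changes of -0.092 and -0.091), and for Relb with median-of-ratios scaling (0.019), limma-voom (0.0048), only the 2 groups compared (0.021) and without Gm26917 and ribosomal protein genes (0.0039), the last chosen after seeing the data. Leaving out 1 library at a time, Nfkb2 ranged from -0.063 to 0.14, Rela from -0.037 to 0.12 and Relb from -0.055 to 0.054, with each sign turning without CD49lo replicate 2.

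Same-numbered libraries did not deviate together (r = -0.02 across 13298 genes, which are not independent). With the replicate number as a block, 9 members were called in CD4 Treg against CD49lo, as without it, and 3552 genes. That fit used only the libraries of these groups and paired numbers that the labels do not pair. Its adjusted p for Nfkbia, 4.93e-35 in limma, rests on the prior variance, so the fit is no independent check. Each member had 136 reads or more in every library.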
